A study of Mus musculus with 9 samples.

Results

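The genes described here are the neighbours of Esr2, the mouse gene of estrogen receptor β (ERβ), on chromosome 12. They were chosen by position on chromosome 12 of GRCm38. All gene IDs were taken whose start lies within 10 Mb of the Esr2 gene body on either side, without Esr2 and 2 other genes. A mean above 1 FPKM (fragments per kilobase of transcript, scaled to the depth of the library) in WT or in ERβKO ovaries was required. Of 287 gene IDs in that window, 284 were considered and 151 were kept, of 14864 genes that passed the same FPKM threshold in the whole genome. Among the 133 that were not kept, 66 were listed at 0 in every ovary. Of the 151 members, 144 exceeded 1 FPKM in both genotypes, 1 only in WT and 6 only in ERβKO ovaries. The threshold fell between Vrtn (1.02 FPKM) and Lrr1 (1.04 FPKM) inside and Six4 (0.998 FPKM) and Trim9 (0.818 FPKM) outside. Members spread unevenly: 19 lay under 1 Mb from Esr2, 6 at 1 to 2.5 Mb, 40 at 2.5 to 5 Mb and 86 beyond. On the side of lower coordinates no member was more than 6.96 Mb away (Rps29), whereas the higher side reached to Ift43 at 9.91 Mb.

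RNA-seq was performed on whole ovaries of 5 WT and 4 ERβKO female mice, all untreated and on a C57BL/6J background, with 1 library per mouse. The knockout allele came from a floxed Esr2 allele (Esr2 tm1Gust, named B6.129X1 by the authors), recombined in the germline by a Rosa26-Cre deleter so that exon 3 is lost in every cell of the body. WT controls were offspring without Cre, which the authors count as WT for ERβ. Whether these controls carried a floxed allele is not stated, so which sequence flanks Esr2 in either genotype is not known here. The ages given for the study's mice are 4 to 20 weeks, not separated by genotype, and the ovaries were not matched for the stage of the estrous cycle. Library totals were 12353740 to 18717510 counted fragments. Esr2 itself, counted over its whole length, did not separate the genotypes: the mean was 16.7 ± 4.5 FPKM for WT and 16.1 ± 5.5 FPKM for ERβKO (SD, n = 5 and 4; log2 fold change -0.02, Benjamini-Hochberg adjusted p = 0.966, edgeR).

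ERβ is a ligand-activated transcription factor of granulosa cells, the somatic cells that surround the oocyte. It binds DNA as a dimer at estrogen response elements, which consist of an inverted repeat, and in the genome most such sites lie away from promoters. A gene altered by homologous recombination in embryonic stem cells is passed on together with its flanking chromosome, and backcrossing removes foreign sequence more slowly the closer it lies to the selected allele. Genes beside a knocked-out gene can thus differ between genotypes for reasons of position. No variant was read here, and every ERβKO ovary carries the allele and its flanks together, so that loss of ERβ and flanking sequence cannot be told apart for any gene below.

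Promoter sequences of 3 called members are shown first, because a promoter is where a difference in DNA sequence or in ERβ binding could be looked for, together with that of Psma3, which was not called. RefSeq (GRCm38.p6) gave promoters of 300 bases, from 250 before to 50 after a start, for 117 of the 151 members; they are reference sequence, not read from these mice. The first, chr12:73286598-73286897 on the plus strand, is shared by a pair of divergent genes, Slc38a6 and Trmt5. The 69 bases in capitals lie between the starts of both genes, with that of Slc38a6 taken from the gene coordinates given below. The RefSeq start that set these 300 bases is a different one and lies beyond the capitals, after the first 250 bases. This promoter is followed by those of Snapc1 (chr12:73964247-73964546, plus strand), Sptb (chr12:76710498-76710797, minus strand) and Psma3 (chr12:70974373-70974672, plus strand). Psma3 is shown because, of the 9 members examined, its promoter alone held a single arm of the estrogen response element, which is in capitals.
Slc38a6: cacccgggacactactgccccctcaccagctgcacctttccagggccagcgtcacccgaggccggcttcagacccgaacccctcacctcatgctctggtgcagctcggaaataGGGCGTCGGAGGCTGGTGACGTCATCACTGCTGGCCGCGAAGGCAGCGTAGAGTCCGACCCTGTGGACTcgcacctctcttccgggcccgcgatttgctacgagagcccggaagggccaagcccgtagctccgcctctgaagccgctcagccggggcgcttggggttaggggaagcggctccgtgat
Snapc1: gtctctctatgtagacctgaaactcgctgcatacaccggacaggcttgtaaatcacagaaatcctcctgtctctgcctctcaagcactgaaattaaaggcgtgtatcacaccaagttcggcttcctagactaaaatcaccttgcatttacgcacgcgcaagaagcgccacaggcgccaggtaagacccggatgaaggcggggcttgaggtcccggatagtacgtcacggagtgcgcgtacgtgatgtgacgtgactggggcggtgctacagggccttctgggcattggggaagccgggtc
Sptb: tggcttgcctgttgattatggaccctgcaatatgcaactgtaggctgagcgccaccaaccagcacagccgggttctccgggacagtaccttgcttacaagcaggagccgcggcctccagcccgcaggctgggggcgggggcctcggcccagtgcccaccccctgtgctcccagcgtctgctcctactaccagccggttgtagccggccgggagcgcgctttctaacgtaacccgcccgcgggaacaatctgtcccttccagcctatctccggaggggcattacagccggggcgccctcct
Psma3: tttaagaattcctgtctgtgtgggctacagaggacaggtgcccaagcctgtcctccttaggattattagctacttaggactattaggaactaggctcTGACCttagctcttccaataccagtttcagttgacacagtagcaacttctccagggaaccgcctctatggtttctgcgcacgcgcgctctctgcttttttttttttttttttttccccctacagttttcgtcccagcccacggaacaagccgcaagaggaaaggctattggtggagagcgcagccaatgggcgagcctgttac

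Complete elements with both arms, searched on both strands as GGTCANNNTGACC, were present in 0 of the 149 member promoters and in 0.07% of 32851 promoters in all. A single arm, GGTCA on either strand, was present in 64 of the 149 (43.0%), near the 40.5% of all promoters. Of the members in the next paragraphs, Psma3 had such an arm, while the promoters of Sptb, Snapc1, Slc38a6, Dact1, Sav1, Ltbp2, Syne2 and Churc1 had none within these 300 bases.

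Between the genotypes, 6 of 144 tested members (4.17%) had a Benjamini-Hochberg adjusted p under 0.05 over 16722 genes by the quasi-likelihood test of edgeR, a log2 fold change of over 0.4 in size and over 1 FPKM on average in a genotype; they are called changed below. These thresholds are those of the study, which applied them to DESeq2, and with that tool 11 members (7.64%) and 800 genes (5.64%; 2.62% higher and 3.02% lower) were called. Sptb and Ltbp2 were higher, and Snapc1, Slc38a6, Dact1 and Sav1 were lower in ERβKO ovaries. In the whole genome 287 of 14178 genes (2.02%) were called, 1.08% higher and 0.945% lower. The members were also frequent at the top of the ranking by p: Sptb was 9th, Snapc1 13th, Slc38a6 16th and Dact1 18th of 16722 genes, and 5 of the 100 smallest p-values belonged to members, which make up 0.861% of the tested genes. At an unadjusted p under 0.05, 41 members (28.5%) differed, 17 higher and 24 lower, against 21.1% of all genes. The typical member changed little, with a median log2 fold change of -0.02 and a median absolute log2 fold change of 0.15, against 0.13 over all genes.

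**Figure D1:**
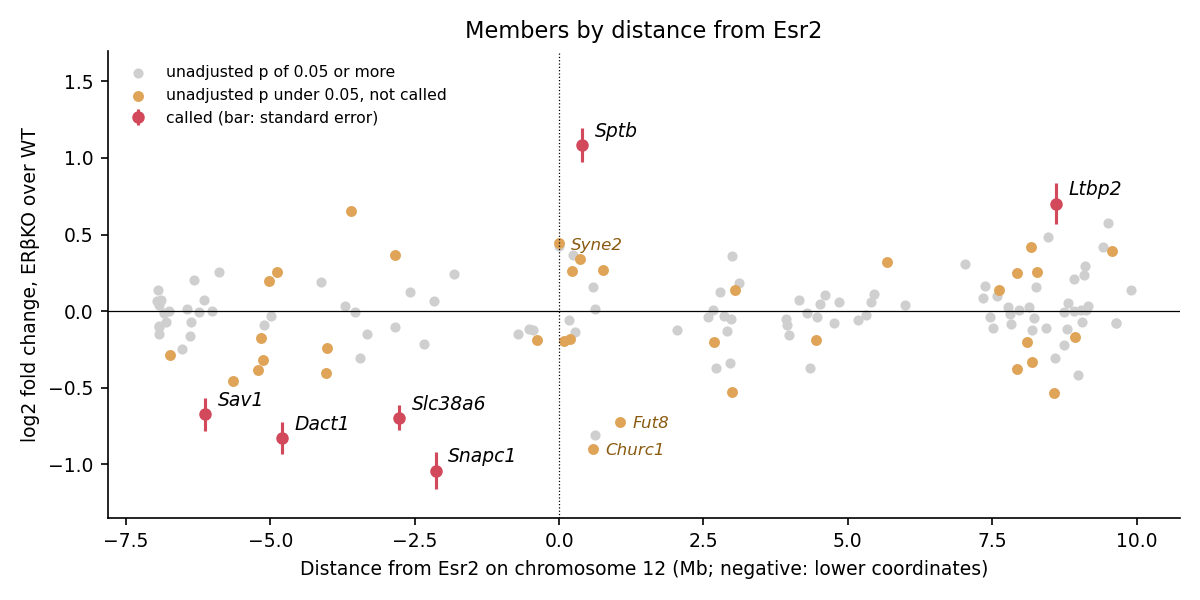
Log2 fold change (ERβKO over WT, edgeR) of the 144 tested members against their distance from Esr2 in Mb, with members at lower coordinates on the left; bars give the standard error of the 6 called members. The 4 called members on the left are lower and the 2 on the right are higher in ERβKO ovaries, and Sptb at 0.403 Mb and Snapc1 at 2.14 Mb show the widest changes.

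The gene with the smallest p among the members was Sptb (ENSMUSG00000021061, chr12:76580488-76710547, minus strand), which encodes β-spectrin, a protein of the membrane skeleton best known from red blood cells, and which ends 403 kb from Esr2. It was at 2.46, 2.55, 2.01, 2.39 and 1.93 FPKM in WT replicates 1 to 5 and at 3.97, 5.96, 4.77 and 4.73 FPKM in ERβKO replicates 1 to 4. No WT ovary reached the level of any ERβKO ovary, and ERβKO replicate 2 was highest. The log2 fold change was 1.08 (standard error 0.11), and the Benjamini-Hochberg adjusted p of edgeR was 0.00297, or 0.000972 to 0.0128 with each ovary left out in turn. Since these are whole ovaries, more cells that express a gene and more RNA per cell cannot be told apart. The sum of 4 erythroid markers overlapped between WT (50.4 to 185 FPKM) and ERβKO ovaries (88.0 to 225 FPKM).

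Snapc1 (ENSMUSG00000021113, chr12:73964530-73984820), a subunit of the complex that activates transcription of small nuclear RNA genes, lies 2.14 Mb from Esr2 on the lower side. It measured 7.05, 9.02, 8.37, 6.71 and 7.77 FPKM in the WT and 3.97, 3.67, 4.10 and 3.08 FPKM in the ERβKO ovaries. The lowest WT ovary exceeded the highest ERβKO ovary by over 2 FPKM. Its log2 fold change was -1.04 (standard error 0.12; Benjamini-Hochberg adjusted p = 0.00537, edgeR). Hif1a, the hypoxia-induced transcription factor that is its neighbour toward lower coordinates, overlapped fully between genotypes at 44.4 ± 8.0 and 47.4 ± 8.6 FPKM (SD, n = 5 and 4; log2 fold change 0.07, adjusted p = 0.832 in the same edgeR test).

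Slc38a6 (ENSMUSG00000044712, chr12:73286779-73354049) belongs to a family of neutral amino acid transporters and lies 2.77 Mb from Esr2. Its values were 6.89, 7.18, 7.25, 8.10 and 7.05 FPKM in WT and 4.36, 4.14, 3.77 and 4.27 FPKM in ERβKO ovaries, with little spread in either genotype. It fell by 0.70 on the log2 scale (standard error 0.08; Benjamini-Hochberg adjusted p = 0.00537, edgeR). Trmt5, a tRNA methyltransferase transcribed in the opposite direction from the promoter shown above, differed the other way. It had 7.00, 6.16, 6.43, 7.17 and 6.72 FPKM in WT and 9.38, 9.14, 7.65 and 7.64 FPKM in ERβKO ovaries. The log2 fold change of Trmt5 was 0.37 (standard error 0.09), under the fold threshold (Benjamini-Hochberg adjusted p = 0.0683, edgeR), and its genotypes did not overlap.

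Dact1 and Sav1 lay farther out on the lower side. Dact1 (ENSMUSG00000044548, chr12:71309884-71320107, 4.80 Mb away) encodes a Dishevelled-binding modulator of Wnt signalling. It was at 5.81, 5.03, 4.29, 4.62 and 4.24 FPKM in WT and at 2.91, 2.86, 2.75 and 2.65 FPKM in ERβKO ovaries, and its log2 fold change was -0.83 (standard error 0.10; Benjamini-Hochberg adjusted p = 0.0074, edgeR). The 4 ERβKO ovaries were nearly equal, and all lay below the lowest WT ovary. Sav1 (ENSMUSG00000021067, chr12:69965012-69987002, 6.13 Mb away), a scaffold protein of the Hippo pathway, was at 36.6, 27.2, 28.1, 31.7 and 35.5 FPKM in WT and at 19.2, 20.4, 21.1 and 20.5 FPKM in ERβKO ovaries. Its log2 fold change was -0.67 (standard error 0.11; Benjamini-Hochberg adjusted p = 0.0166, edgeR). The call of Sav1 was lost without ERβKO replicate 2 or 4, with adjusted p-values up to 0.0666 in edgeR. A gene on the opposite strand covers 34.9% of the exon length of Dact1 and 25.4% of that of Sav1, and whether the authors' counting used strand is not given in the sources used here, so these 2 values may include antisense reads.

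Ltbp2 (ENSMUSG00000002020, chr12:84783212-84876532), a microfibril-associated protein of the extracellular matrix, was the member farthest from Esr2 among the 6, at 8.61 Mb on the higher side. It had 3.90, 2.88, 3.05, 2.72 and 3.57 FPKM in WT and 4.33, 6.76, 5.17 and 5.30 FPKM in ERβKO ovaries. The groups did not overlap, but ERβKO replicate 1 was close to WT replicate 1. The log2 fold change was 0.70 (standard error 0.13; Benjamini-Hochberg adjusted p = 0.0304, edgeR). It was the least stable of the 6: the call was lost without ERβKO replicate 2, 3 or 4 and without WT replicate 4 or 5, with adjusted p-values up to 0.0991 in edgeR. The call was also lost in edgeR with the replicate number as a block (adjusted p = 0.114) and without WT replicates 4 and 5 together (adjusted p = 0.112). In limma without a filter on low values it was lost too (adjusted p = 0.109).

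**Figure D2:**
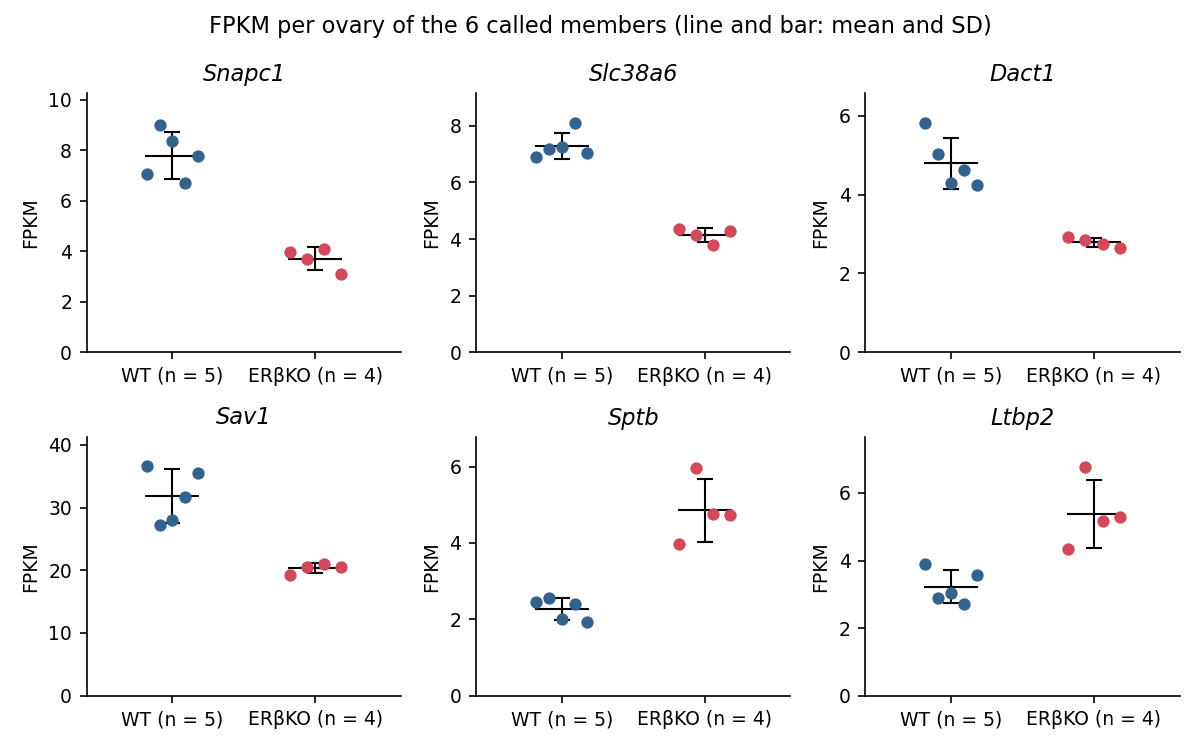
FPKM of the 6 called members in each ovary, on axes that start at 0, with WT (n = 5) in blue and ERβKO (n = 4) in red; the line and bar are the mean and SD. In each panel the 2 genotypes do not overlap, and the narrowest gap is that of Ltbp2, between 3.90 FPKM in WT replicate 1 and 4.33 FPKM in ERβKO replicate 1.

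The immediate neighbours of Esr2 differed by less. On the lower side the nearest is Syne2, whose 3′ end lies 9.49 kb from that of Esr2 and which encodes nesprin-2, a giant protein of the nuclear envelope. It was at 42.7, 34.0, 31.0, 33.1 and 37.2 FPKM in WT and at 59.6, 46.4, 54.2 and 61.3 FPKM in ERβKO ovaries, without overlap. The log2 fold change from the counts was 0.44 (standard error 0.10), which just missed the threshold (Benjamini-Hochberg adjusted p = 0.0556, edgeR), while the log2 ratio of mean FPKM was 0.64. DESeq2 called it, as did limma on log2 FPKM with the filter on low values. Behind Syne2 follow Sgpp1 (385 kb), a sphingosine-1-phosphate phosphatase, Wdr89 (451 kb), Ppp2r5e (524 kb), a regulatory subunit of protein phosphatase 2A, and Rhoj (719 kb). Their log2 fold changes lay between -0.19 (Sgpp1) and -0.12 (Ppp2r5e), and none was called. The values of Sgpp1 were 19.0, 21.3, 19.3, 19.5 and 19.7 FPKM in WT and 18.2, 17.6, 17.3 and 17.7 FPKM in ERβKO ovaries, a small difference without overlap (adjusted p = 0.0811 in the same edgeR test).

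On the higher side the nearest members are Mthfd1 (78.0 kb), a folate enzyme that supplies one-carbon units for nucleotide synthesis, the zinc finger genes Zbtb25 (170.5 kb) and Zbtb1 (193 kb), the heat shock protein gene Hspa2 (227 kb) and Ppp1r36 (240.3 kb). Their log2 fold changes were -0.20, -0.06, -0.19, 0.26 and 0.37, and none was called. Zbtb1 was at 3.68, 3.91, 3.65, 3.59 and 3.71 FPKM in WT and at 3.57, 3.35, 3.30 and 3.10 FPKM in ERβKO ovaries, so that the groups were separated by less than 0.02 FPKM. Gm7862, a processed pseudogene that lies within Esr2, rested on 5 to 20 counts and overlapped between genotypes (0.902 ± 0.37 and 1.33 ± 0.83 FPKM, SD, n = 5 and 4). Of the 10 nearest members, 5 on each side, 5 had an unadjusted p under 0.05 in edgeR, against 21.1% of all genes. Syne2 and Hspa2 were higher and Sgpp1, Mthfd1 and Zbtb1 lower. Sptb was the nearest member that was called.

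**Figure D3:**
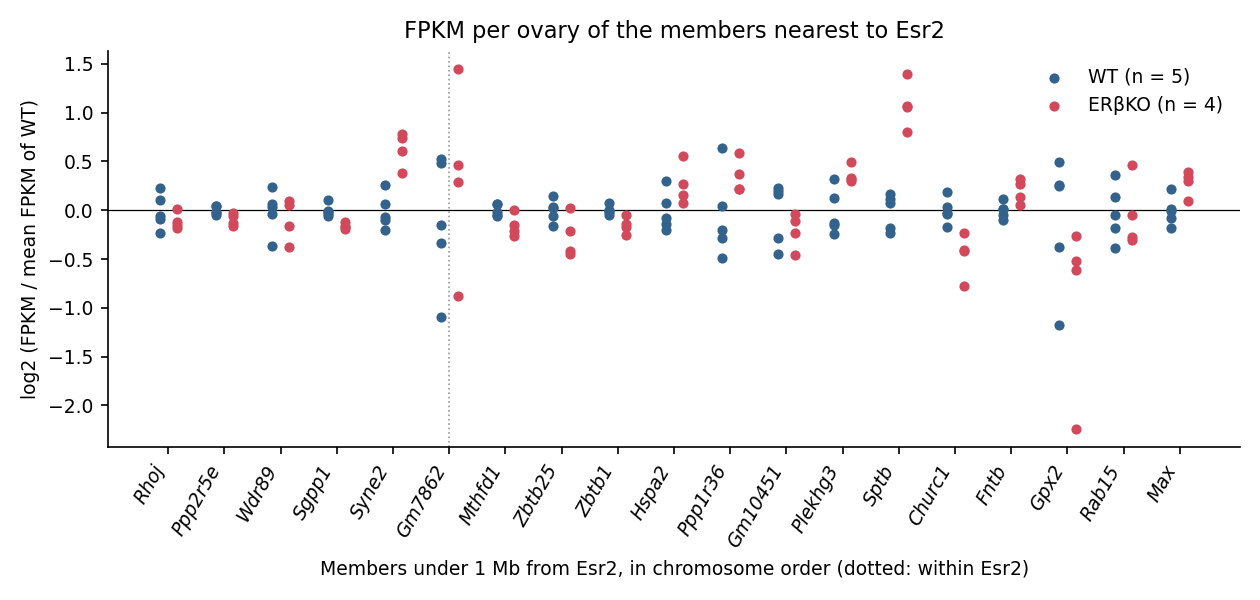
FPKM of the 19 members under 1 Mb from Esr2 in each ovary, as log2 of the ratio to the mean of the WT ovaries, in chromosome order; WT (n = 5) in blue and ERβKO (n = 4) in red. Syne2, Sgpp1, Zbtb1, Sptb and Churc1 have no overlap between genotypes, and Sptb is the farthest from 0.

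Shares of members that differed are given by distance from Esr2. Of the 19 members under 1 Mb, 9 (47.4%) had an unadjusted p under 0.05, 5 higher and 4 lower. This share was 33.3% (2 of 6) at 1 to 2.5 Mb, 27.5% (11 of 40) at 2.5 to 5 Mb and 24.1% (19 of 79) at 5 to 10 Mb. Farther along chromosome 12, at 10 to 20 Mb from Esr2, it was 14.0% (6 of 43), below the 21.1% of all genes. FPKM ranges did not overlap between genotypes for 5 of 19 (26.3%) under 1 Mb and 1 of 6 (16.7%) at 1 to 2.5 Mb. This held for 7 of 40 (17.5%) at 2.5 to 5 Mb and 10 of 86 (11.6%) at 5 to 10 Mb. At 10 to 20 Mb it held for 2 of 46 (4.35%), against 7.95% of all genes. In all, 23 of 151 members (15.2%) did not overlap, 8 higher and 15 lower in ERβKO ovaries, where 4.44% of all genes were higher and 3.51% lower without overlap. The median absolute log2 fold change was 0.20 under 1 Mb, 0.23 at 1 to 2.5 Mb, 0.14 at 2.5 to 5 Mb, 0.12 at 5 to 10 Mb and 0.09 at 10 to 20 Mb. Over single members the relation was weak, with a Spearman correlation of -0.16 between distance and absolute log2 fold change across the 144 tested members, which share the same 9 libraries and are not independent replicates. From the nearest to the farthest bin, the called shares were 5.26% (1 of 19), 16.7% (1 of 6), 5.00% (2 of 40) and 2.53% (2 of 79) in edgeR, against 2.02% of all genes, and 15.8%, 33.3%, 7.5% and 3.8% in DESeq2, against 5.64%. With so few called members, 1 gene moves a share by several percent. With each ovary left out in turn, the share under 1 Mb with an unadjusted p under 0.05 ranged from 36.8% (without ERβKO replicate 2, when all genes had 15.3%) to 57.9% (without WT replicate 2, when all genes had 26.5%). The order of the bins did not hold in every case. Without WT replicate 4 the share was 42.1% under 1 Mb and 3 of 6 members at 1 to 2.5 Mb. In that fit it was 8 of 40 at 2.5 to 5 Mb and 24.1% at 5 to 10 Mb, when all genes had 19.5%. Without WT replicate 2 it was 30.0% at 2.5 to 5 Mb and 31.6% at 5 to 10 Mb. Without WT replicate 3, and likewise without ERβKO replicate 3, these 2 bins had 22.5% and 22.8%. The share without overlap under 1 Mb was 47.4% (9 of 19) without ERβKO replicate 1 (all genes 12.5%) or WT replicate 2 (all genes 14.8%), and without WT replicate 2 that at 5 to 10 Mb was 22.1% (19 of 86) and that at 1 to 2.5 Mb 33.3% (2 of 6), as it also was without WT replicate 4.

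**Figure D4:**
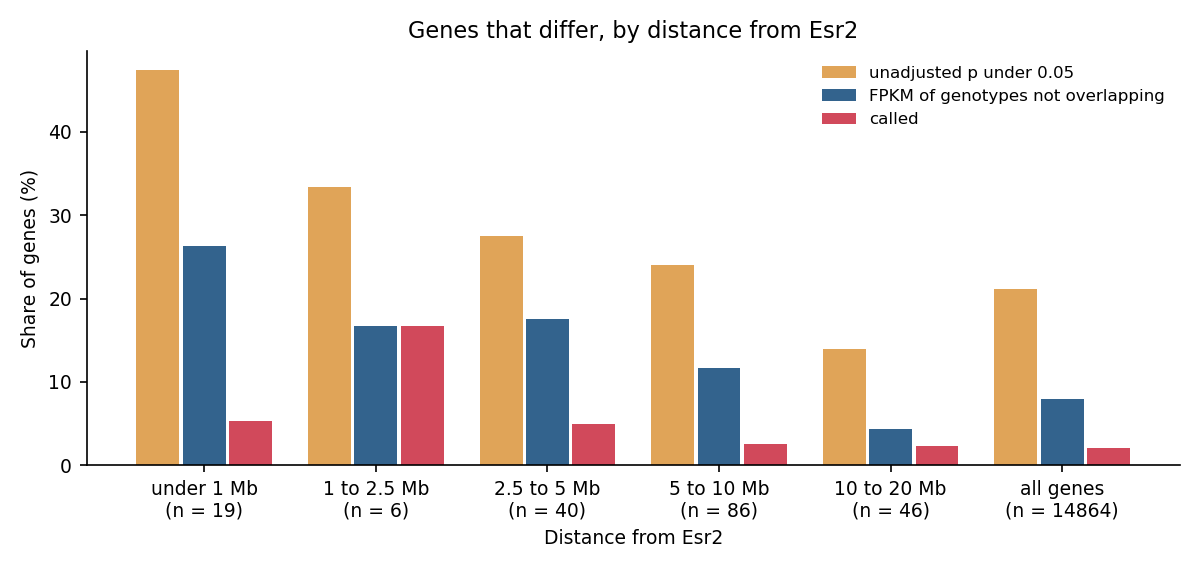
Share of genes (%) with an unadjusted p under 0.05 in edgeR (of those tested), with FPKM ranges that do not overlap between genotypes (of all), and called (of those tested), for 4 distance bins of members, for chromosome 12 at 10 to 20 Mb from Esr2 and for all genes. The first share goes from 47.4% under 1 Mb to 14.0% at 10 to 20 Mb, and all genes are at 21.1%.

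Called members are given by side of Esr2 next. On the lower side 4 of 51 tested members (7.84%) were called, all lower in ERβKO ovaries, and 12 of the 17 members with an unadjusted p under 0.05 were lower. On the higher side 2 of 92 (2.17%) were called, both higher, and 12 members with an unadjusted p under 0.05 were higher and 12 lower. Over all genes 2.02% were called, 1.08% higher and 0.945% lower, so the higher side was near that share. An unadjusted p under 0.05 was found for 33.3% of the lower and 26.1% of the higher side. For all genes this share was 21.1%, with 10.4% higher and 10.7% lower. The division by direction did not hold with DESeq2, which called Syne2 higher on the lower side and Churc1, Fut8 and Rdh11 lower on the higher side. The difference between the sides was not tested. Outside the window, 8 of 346 tested genes of chromosome 12 (2.31%) were called, and 22.5% had an unadjusted p under 0.05. As a whole, chromosome 12 had a share of called genes of 2.84%, below that of chromosome X (4.58%) and chromosome 6 (3.74%) and above that of the other chromosomes.

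With 1 ovary left out, 4 to 15 members and 60 to 919 genes in all were called. Without ERβKO replicate 2, 60 genes (0.423%) were called in edgeR, and 5 of 144 members (3.47%) were among them. Without WT replicate 2 the counts were 919 genes (6.49%) and 15 members (10.4%). In the main fit and all 19 alternatives the share called was higher among members than among all genes. Sptb, Snapc1 and Slc38a6 were called in all 19 alternative fits at a mean FPKM over 1, and Dact1 in all except limma on log2 FPKM without a filter on low values. With a mean FPKM over 5 in place of 1, 4 members were called, and Sptb and Dact1, at means under 5 FPKM, were not. The share of all genes called at that threshold is not given here, so these 4 cannot be set against it.

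**Figure D5:**
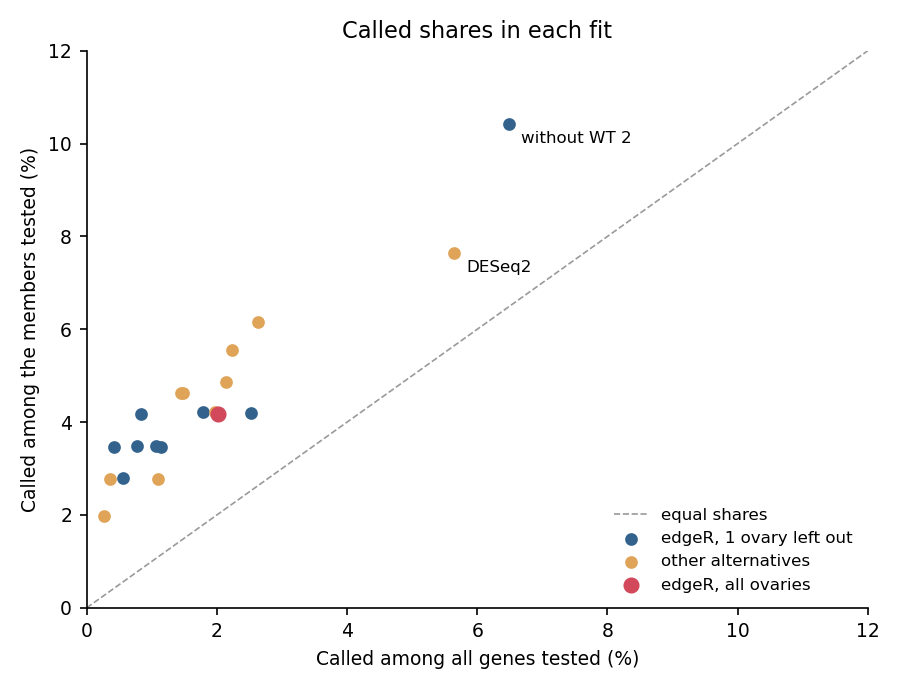
Share of tested members called (%, vertical) against the share of all tested genes called (%, horizontal) in the main fit (red), with 1 ovary left out (blue) and in the other alternatives (yellow); the dashed line marks equal shares. All 20 fits lie above the line, from 0.262% of genes and 1.99% of members to 6.49% of genes and 10.4% of members.

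Several members lay near one of the thresholds. Psma3, a subunit of the 20S proteasome whose promoter is shown above, was at 84.7, 89.1, 64.3, 81.7 and 96.6 FPKM in WT and at 57.5, 57.0, 62.4 and 59.4 FPKM in ERβKO ovaries (log2 fold change -0.32, Benjamini-Hochberg adjusted p = 0.0506, edgeR). Its change was under the fold threshold whatever the p. WT replicate 3 was the ovary closest to the ERβKO ovaries. Churc1, a zinc finger gene 588 kb from Esr2, had 15.7, 17.4, 18.1, 17.3 and 20.2 FPKM in WT and 13.4, 15.1, 13.3 and 10.3 FPKM in ERβKO ovaries. Its log2 fold change was -0.90 from 43 to 150 counts per library (adjusted p = 0.0508 in the same edgeR test), but the log2 ratio of its mean FPKM was -0.45. It overlaps Fntb on the same strand, so its reads may be split between both genes. Tmx1, a thioredoxin-related protein of the endoplasmic reticulum, had a log2 fold change of -0.45 (Benjamini-Hochberg adjusted p = 0.0573, edgeR). Churc1 and Tmx1 were called with DESeq2 (adjusted p = 0.00097 and 0.00401), and both were called in edgeR without a filter on low counts. Pcnx, which encodes a large membrane protein, did pass the adjusted p at 0.0345 in that test, but its log2 fold change of 0.32 was under the fold threshold. It was at 9.85, 8.97, 8.88, 10.0 and 8.74 FPKM in WT and at 11.7, 11.6, 11.1 and 12.7 FPKM in ERβKO ovaries, again without overlap.

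In some members 1 WT ovary lay within the range of the ERβKO ovaries. Fut8, the core fucosyltransferase of N-glycans, lies 1.06 Mb from Esr2. It was at 33.7, 18.6, 25.6, 35.3 and 48.8 FPKM in WT and at 18.5, 18.7, 18.9 and 23.1 FPKM in ERβKO ovaries. WT replicate 2 lay among the ERβKO ovaries, and the other 4 WT ovaries were above all of them. Its log2 fold change was -0.72 (standard error 0.24; Benjamini-Hochberg adjusted p = 0.135, edgeR, and 0.0215 without WT replicate 2), and DESeq2 called it with all 9 ovaries (adjusted p = 0.0358). Rdh11, a retinol dehydrogenase at 3.00 Mb, was at 13.0, 8.91, 10.6, 11.0 and 16.0 FPKM in WT and at 9.33, 7.44, 8.04 and 9.15 FPKM in ERβKO ovaries, with the same ovary lowest in WT. It had a log2 fold change of -0.53 and an adjusted p of 0.121 in the edgeR test, 0.0368 without WT replicate 2 and 0.0365 with DESeq2 on all 9 ovaries.

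By function, 102 members were in 11 role lists, and the called members fell into 5 of them. Of 13 members of the cytoskeleton, nuclear envelope and polarity list, Sptb was called higher and Sav1 lower, against 2.02% of all genes called in either direction. In that list 5 were higher and 2 lower at an unadjusted p under 0.05, where 10.4% of all genes were higher and 10.7% lower. Syne2, Plekhg3 and Dnal1 were among the 5, and Frmd6 was among the 2. None of 20 metabolic enzymes was called, but 7 were lower at an unadjusted p under 0.05 and none higher, against the same 10.7% of all genes, and the median log2 fold change of the 20 was -0.18. The 7 were L3hypdh, Sgpp1, Mthfd1, Fut8, Ptgr2, Entpd5 and Dlst. In the transcription and chromatin list Snapc1 was the 1 called gene of 17, and likewise Dact1 of 8 signalling proteins, Ltbp2 of 4 secreted and matrix proteins, and Slc38a6 of 2 transporters. Among 11 genes of RNA processing and translation none was called, and the abundant ones varied little: Srsf5, a splicing factor, averaged 340.1 ± 11 FPKM for WT and 328 ± 14 FPKM for ERβKO (SD, n = 5 and 4), the highest level of any member, and the ribosomal protein gene Rps29 had 268 ± 25 and 284 ± 23 FPKM. Erh, a small protein of RNA metabolism, was separated by genotype, with 65.9 to 70.0 FPKM in WT and 58.5 to 60.4 FPKM in ERβKO ovaries (log2 fold change -0.19, Benjamini-Hochberg adjusted p = 0.133, edgeR). No member of the lists of DNA replication and repair (6), membrane traffic and lysosome (16), acyl-CoA thioesterases (3) or retinol dehydrogenases (2) was called.

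Of 9 sums of cell type markers, only that of granulosa cells separated the genotypes. The part of cell composition in these results was not tested. The summed FPKM of 8 granulosa cell markers was 515 to 613 in WT and 690 to 906 in ERβKO ovaries. All 8 were higher and 2 of them were called, where 2.02% of all genes were called. Of 8 luteal markers 7 were lower, none called, with overlapping sums of 2745 to 6396 FPKM in WT and 2514 to 3746 FPKM in ERβKO ovaries. Sums of theca, oocyte, stromal, macrophage, adipocyte and oviduct markers overlapped. All 6 oocyte, 5 macrophage and 5 adipocyte markers were also higher, and none was called. Theca and oviduct markers were each 3 higher and 1 lower, and stromal markers 2 higher and 3 lower. Theca markers ranged from 30.7 to 148 FPKM in WT and 75.0 to 488 FPKM in ERβKO ovaries (medians 53.0 and 256), with Insl3 under 1 FPKM, and adipocyte markers from 69.7 to 148 and 92.3 to 520 FPKM (medians 85.5 and 192).

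A few members could not be tested because they had almost no counts. Gm20498, a read-through of Cox16 and Synj2bp, was listed at 5.78 to 9.10 FPKM in WT and 3.68 to 5.58 FPKM in ERβKO ovaries, but had at most 5 counts per library, and other genes on its strand cover 78.8% of its exons. Rnf113a2 was listed at 0 in WT replicate 3 and ERβKO replicates 1 and 4, the same 3 ovaries in which its neighbour AC120402.1 was listed at 5.12, 6.25 and 8.64 FPKM. AC157822.1 was listed at 24.9 FPKM in WT replicate 2 and at 0 elsewhere. AC157822.2, AC099934.2 and Mir681 were the other 3 untested members.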

How the data were processed

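The series holds 9 RNA-seq libraries of whole mouse ovaries. The authors prepared stranded libraries of polyadenylated RNA, mapped reads to GRCm38 with STAR and deposited raw gene counts from FeatureCounts, and FPKM and TPM values per gene from StringTie. TPM were used for 1 alternative, and the authors' coverage signal only to check columns.

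Counts were fitted with edgeR 4.0.16 in R 4.3.3 (filterByExpr, TMM, quasi-likelihood test of genotype, Benjamini-Hochberg adjustment over 16722 genes), with tests tried on simulated data. Standard errors were derived from the test, as the absolute log2 fold change divided by the square root of its F statistic. Distances are gaps between gene bodies. DESeq2 1.42.0 and limma 3.58.1 were alternatives, beside other normalizations, filters, FPKM thresholds and windows, a replicate block, WT replicates 4 and 5 left out together, and each ovary left out. Named are the 5 nearest members per side, called members, the 10 smallest adjusted p, up to 10 without overlap, the 5 highest levels, the top of each role list, and members at the window and FPKM limits. L3hypdh, Ptgr2, Entpd5, Frmd6, Plekhg3, Dnal1, Gm7862, Fntb and the untested members were named after their values were seen. Members and lists were chosen with earlier results of these data known. Overlaps with exons came from GENCODE vM21, whose coordinates were the same for 81 of 151 members. Labels do not state which mice were littermates. p-values set the difference between genotypes against the spread among ovaries of the same genotype, for these 9 ovaries. 2 genes in the window are not reported here.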

Additional observations from a re-analysis of the deposited data

Results flagged for a closer look

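Of 98 groups of FPKM values of the 49 named members, 8 (8.16%) held an ovary that stood apart from the others of its genotype by Dixon's criterion, which chance meets in about 1 in 20 groups. Above the others of their genotype were Actn1 in WT replicate 2 (61.7 FPKM, others 38.0 to 44.2), Cdkl1 in ERβKO replicate 2 (33.9 FPKM, others 24.9 to 26.3), Fut8 in ERβKO replicate 4 (23.1 FPKM, others 18.5 to 18.9), Hif1a in ERβKO replicate 3 (60.1 FPKM, others 41.2 to 44.3), Nek9 in WT replicate 4 (23.7 FPKM, others 21.2 to 21.9), Arf6 in WT replicate 3 (30.6 FPKM, others 25.5 to 26.9) and Vrtn in WT replicate 3 (1.53 FPKM, others 0.395 to 0.639). Mlh3 in ERβKO replicate 3 lay below the others (4.20 FPKM, others 4.41 to 4.44). None of the 8 genes was called, and none of the 6 called members was among them.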

How the results depend on the processing

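Over all genes 287 were called, against 800 with DESeq2, 155 with the replicate block, 51 without WT replicates 4 and 5, 39 with limma without a filter, and 60 to 919 with each ovary left out. Members called numbered 6, against 11 with DESeq2, 3 with limma without a filter, and 4 to 15 with each ovary left out (15 without WT replicate 2). With DESeq2 and without WT replicate 2 the 6 were among them. Of 25 tested members within 2.5 Mb of Esr2, 2 were called, against 2.02% of all genes. With DESeq2 5 of the 25 were called, against 5.64% of all genes. Without a filter on low counts 4 were called (all genes 2.63%). With each ovary left out 2 to 7 were called, and the 7 arose without WT replicate 2, when all genes had 6.49%. The 23 members without overlap became 23 to 40 when 1 ovary was left out, 40 without WT replicate 2, when all genes went from 1181 to 2205. With the replicate number as a block 4 members were called (Dact1, Slc38a6, Snapc1 and Sptb). Same-numbered ovaries had correlations of 0.09, 0.16, -0.07 and -0.03, within the range of -0.33 to 0.24 of differently numbered ones. These values cannot decide whether the numbers pair the mice.

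Of 931 values of the 49 named members under alternatives, 861 kept direction and side of the threshold, 20 passed it newly, 14 lost it, and 36 changed sign. These 36 belong to 12 uncalled genes near 0. Atp6v1d was at -0.00106 with DESeq2 and -0.000231 with DESeq2 size factors. Without WT replicates 4 and 5, Acot2 was at 0.019, Tmed10 at -0.0162, Exd2 at 0.00209, Lrr1 at -0.105, Wdr89 at 0.0206 and Acot1 at 0.0233. With limma, Acot2 was at 0.0614 (pseudocount 0.1) and 0.0519 (pseudocount 1, with or without a filter), and Exd2 at 0.0264 and 0.0234. With the replicate block Exd2 was at 0.00185. With each ovary left out, log2 fold changes were -0.0746 to 0.158 for Hif1a, -0.0138 to 0.0400 for Atp6v1d, -0.114 to 0.00644 for Zfp36l1, -0.0165 to 0.127 for Smoc1, -0.0856 to 0.0400 for Acot2, -0.0039 to 0.0766 for Tmed10, -0.0629 to 0.0287 for Exd2, -0.015 to 0.0317 for Nek9, -0.00975 to 0.534 for Lrr1, -0.0698 to 0.0178 for Slc39a9 and -0.18 to 0.014 for Acot1. The cause was not tested.

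Limits are that 9 libraries were compared, that neighbouring genes share them, and that loss of ERβ and flanking sequence cannot be told apart.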
